A study of Mus musculus with 9 samples.

Results

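ATF4 targets and amino acid supply were followed in mouse myeloid precursors as they were turned into osteoclasts, through 10 genes: the transcription factor Atf4, its stress targets Ddit3, Trib3, Chac1 and Sesn2, the amino acid enzymes Asns, Psat1 and Phgdh, and the transporter subunits Slc3a2 and Slc7a5. A member was a row of the expression table whose probe set (a transcript cluster) carried that single gene symbol, and the cluster with the highest mean was kept for each symbol. By this rule 9 of the 10 genes were measured, out of 14860 genes with a single symbol, and Phgdh was not analysed here. The cells were C57Black6 bone marrow cells expanded for 3 days on plastic with 100 ng/ml CSF-1, the growth factor that keeps macrophage precursors alive, and then seeded in an osteoclast culture medium. The groups were CSF-1 alone, RANKL for 1.5 days and RANKL for 3 days, with 3 whole-transcript arrays each. RANKL is the cytokine that commits these precursors to the osteoclast fate. How long the CSF-1 alone cultures ran is not in the labels, so the effect of RANKL and that of culture time cannot be told apart. The study's methods describe its replicates as biological, and the labels do not say whether each array came from a mouse or culture of its own. Values are log2 signals, on which a difference of 1 unit is a doubling.

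ATF4 is a bZIP transcription factor whose protein is made mainly when phosphorylation of the initiation factor eIF2α slows general translation, as happens when amino acids run short or unfolded protein collects in the endoplasmic reticulum. Much of its control is therefore at translation, and its mRNA can stay level while its targets move. It pairs with C/EBP proteins on a composite site, the C/EBP-ATF response element, and turns on genes that make, import and attach amino acids to tRNA. Under sustained stress it also turns on Ddit3 (CHOP) and Trib3, which are linked to cell death and to feedback on ATF4 itself.

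The response element was looked for in the promoters of the members, since it is the sequence through which ATF4 is known to act. Its core, TGATGNAA, was searched on both strands in RefSeq promoter windows (GRCm38.p6) of 250 bases before and 50 bases after each gene start. A window was at hand for 9 of the 10 members, with 2 starts for Psat1, and Slc7a5 had none. The core was found in 3 of these 9 genes, against 4.51% of the 27025 genes with a window, and the sequences below carry it in capitals, 5′ to 3′ on the strand of the gene. The Asns window is chr6:7693210-7693269 on the minus strand, with the core at positions -23 to -16 from the start. The Chac1 window is chr2:119351023-119351082 on the plus strand, with the core in reverse orientation at -193 to -186. The Trib3 window is chr2:152344028-152344057 on the minus strand, with the core in reverse orientation at 15 to 22 past the start.
Asns: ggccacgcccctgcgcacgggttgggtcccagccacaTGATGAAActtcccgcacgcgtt
Chac1: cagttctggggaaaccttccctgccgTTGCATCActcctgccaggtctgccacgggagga
Trib3: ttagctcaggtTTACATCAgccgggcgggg
The Chac1 site alone among them also read as the stricter form TGATGCAA (every instance of which is also a core match), which 1.03% of genes held. No member held the endoplasmic reticulum stress element in its window, which 0.137% of genes did. These are letter matches only, and no binding was measured.

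Osteoclast markers checked the labels. Averaged over 10 of them, the signal was 5.16 to 5.34 on the CSF-1 alone arrays, 6.16 to 8.03 after 1.5 days and 8 to 8.95 after 3 days. Not all followed the average: at 1.5 days Itgb3 had a mean of 6.30 against 6.59 with CSF-1 alone, and Calcr 3.68 against 3.57. By limma 1 of the 10 was called at 3 days (Mmp9, 7.24, adjusted p = 0.0237) and 0 at 1.5 days, beside 0.397% and 0.417% of all genes. Even Acp5, 5.13 higher at 3 days, was not called (adjusted p = 0.0599). The average of 9 macrophage markers lay between 9.96 and 10.6 on all arrays, but single ones moved. At 1.5 days 4 of 9 were lower than CSF-1 alone without overlap, beside 899 of all 14860 genes, with changes down to -1.17 (Mrc1). Spi1 was higher without overlap, beside 1283 of all genes, and was called (0.41, adjusted p = 0.0427 by limma). Replicate 1 stood apart within the RANKL groups. Its average over the osteoclast markers was the lowest of the 3 at both times, with a median gap to replicates 2 and 3 of -1.88 at 1.5 days and -1 at 3 days. At each time 9 of the 10 markers lay below, and Itgb3 (0.185 at 1.5 days) and Atp6v0d2 (0.435 at 3 days) lay above. With CSF-1 alone the median gap was -0.07, though Atp6v0d2 was 2.15 higher on replicate 1. At 3 days 14.9% of all genes lay at least 0.5 from the other replicates on that array, against 5.75% at 1.5 days and 5.49% with CSF-1 alone. The other marker lists (lymphoid, erythroid and megakaryocyte, granulocyte and mast cell, stromal and osteoblast) averaged between 2.71 and 4.77 on every array. Within them the megakaryocyte marker Pf4 stood higher and moved. It read 7.96, 7.81 and 8.03 with CSF-1 alone, 7.53, 6.02 and 5.54 at 1.5 days and 5.99, 6.81 and 6.98 at 3 days. In such bulk samples fewer cells of a type and less RNA per cell cannot be told apart.

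No member changed by the test in any of the 3 comparisons (limma on all 9 arrays, Benjamini-Hochberg adjusted p under 0.05 over all 14860 genes). After 3 days of RANKL against CSF-1 alone, 0 of 9 members were called, where 0.397% of all genes were. After 1.5 days against CSF-1 alone it was again 0 of 9, with 0.417% of all genes called. Between 3 days and 1.5 days 0 of 9 were called, and so were 0% of all genes. At an unadjusted p under 0.05 the members counted 0, 2 and 1 in these comparisons, beside 10.5%, 8.83% and 5.19% of all genes. With so few genes called at all, a miss here does not show that the members were unchanged, and the widths of the intervals below give what could have gone unseen.

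The 9 members did not move as a block. Their median log2 change was -0.07 at 3 days against CSF-1 alone (all genes -0.01), 0.08 at 1.5 days against CSF-1 alone (all genes 0.01) and -0.11 between 3 days and 1.5 days (all genes -0.01). The first and the last turned sign with the arrays used. At 3 days against CSF-1 alone the median was 0.02 without RANKL 3 days replicate 1 and 0.05 with replicates 2 and 3 alone. Between 3 days and 1.5 days it was 0.06 without RANKL 3 days replicate 1, 0.07 with a weight per array and 0.16 with replicates 2 and 3 alone. At 1.5 days the arrays of 5 of the 9 members did not overlap those of CSF-1 alone, beside 14.7% of all genes. Ddit3, Trib3 and Slc3a2 lay lower and Chac1 and Psat1 higher. At 3 days only Trib3 was still separate from CSF-1 alone (1 of 9, beside 11.5% of all genes), and 3 of 9 were separate between the RANKL times (6.79% of all genes): Ddit3 and Sesn2 lay higher at 3 days and Slc7a5 lower. An exact permutation test of 3 arrays against 3 cannot give a two-sided p below 0.1, so it was not used for single genes.

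**Figure D1:**
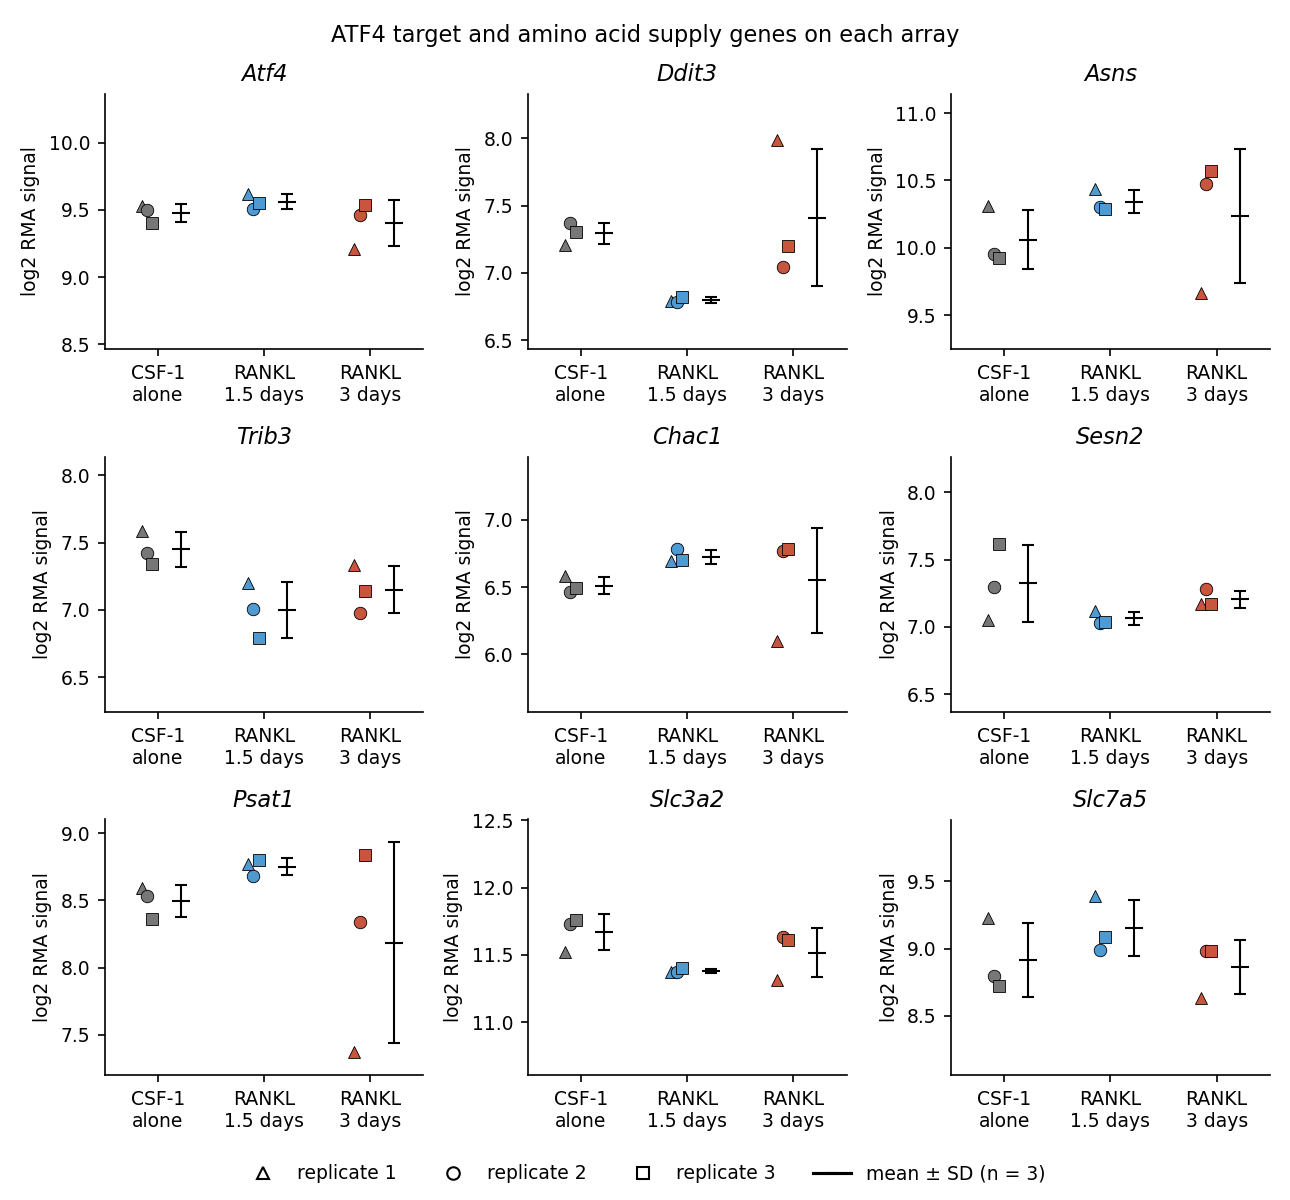
Log2 signal of the 9 measured members (y axis, each panel spanning the same 1.9 units) on every array of the 3 groups (x axis); triangles, circles and squares are replicates 1, 2 and 3, and bars are the mean ± SD of 3 arrays. Ddit3 and Slc3a2 form a tight low group at 1.5 days, and the triangle at 3 days lies far from the other replicates for Psat1, Ddit3, Asns and Chac1.

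Atf4 itself was the steadiest member. Its log2 signal was 9.53, 9.50 and 9.40 with CSF-1 alone, 9.62, 9.51 and 9.55 at 1.5 days and 9.21, 9.46 and 9.54 at 3 days. All 9 arrays lay within 0.41 of each other, and the groups overlapped. The change was -0.07 at 3 days against CSF-1 alone (95% interval -0.28 to 0.14, adjusted p = 0.822) and 0.08 at 1.5 days against CSF-1 alone (-0.13 to 0.29, adjusted p = 0.928). The 3 day change was 0.02 without RANKL 3 days replicate 1 and 0.05 with replicates 2 and 3 alone. These values bear on the mRNA only, as the arrays do not measure ATF4 protein.

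Ddit3, which encodes the stress-induced factor CHOP, was lowest at 1.5 days. Its signal was 7.21, 7.37 and 7.30 with CSF-1 alone, 6.79, 6.78 and 6.82 at 1.5 days and 7.99, 7.04 and 7.20 at 3 days. The 1.5 day arrays agreed within 0.04 and lay below all other arrays, while the 3 day group was spread by replicate 1. The mean was 6.80 ± 0.02 at 1.5 days against 7.29 ± 0.08 with CSF-1 alone (SD, n = 3 each), a change of -0.50 ± 0.22 (SE) with an interval of -0.999 to 0.005 and an adjusted p of 0.573 by limma. Its standard error carried the 3 day spread, since the fit pools the spread of the 3 groups. Without RANKL 3 days replicate 1 the same difference was called (adjusted p = 0.0317, where 0.579% of all genes were called). It was also called with replicates 2 and 3 alone (-0.54, adjusted p = 0.0422, 3.19% of all genes called) and with a weight per array (-0.52, adjusted p = 0.0409, 4.08% of all genes called). These were the only 3 of 22 settings that called it by adjusted p. The fit limited to the arrays of this comparison, which holds no 3 day array, did not call it. The 3 day spread alone therefore does not account for the missing call. At 3 days Ddit3 averaged 7.41 ± 0.51 against 6.80 ± 0.02 at 1.5 days, a change of 0.61 with an unadjusted p of 0.0227 and an adjusted p of 0.823 by limma. Against CSF-1 alone the 3 day change was 0.12, and it turned to -0.17 without RANKL 3 days replicate 1.

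Trib3, a pseudokinase that is induced by ATF4 and CHOP and dampens both, lay below CSF-1 alone at both times. It read 7.59, 7.42 and 7.34 with CSF-1 alone, 7.20, 7.01 and 6.79 at 1.5 days and 7.33, 6.98 and 7.14 at 3 days. No RANKL array reached the lowest CSF-1 alone array, although RANKL 3 days replicate 1 (7.33) came close to it (7.34). The change was -0.45 at 1.5 days (interval -0.75 to -0.15, unadjusted p = 0.00892, adjusted p = 0.293 by limma) and -0.30 at 3 days (interval -0.60 to 0.00, adjusted p = 0.477). It kept its sign under all 21 alternatives at both times. With the array set (replicate 1 against replicates 2 and 3) as a term the 1.5 day change was called, narrowly, at an adjusted p of 0.0494, where 1.38% of all genes were called.

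Chac1 and Sesn2 are the other stress targets. Chac1 degrades glutathione. It read 6.58, 6.46 and 6.49 with CSF-1 alone, 6.69, 6.78 and 6.70 at 1.5 days and 6.10, 6.77 and 6.78 at 3 days. Every 1.5 day array and 2 of the 3 arrays at 3 days lay above CSF-1 alone, and RANKL 3 days replicate 1 lay below it. The change was 0.21 at 1.5 days (interval -0.18 to 0.61) and 0.04 at 3 days (interval -0.35 to 0.43), with adjusted p of 0.868 and 0.965 by limma. The sign at 3 days was not settled: it was -0.03 after a further quantile normalization, -0.02 with each array centred on its median, and between -0.08 and 0.27 as the 3 day arrays were left out in turn. Sesn2, a leucine sensor that holds back the kinase mTORC1, read 7.05, 7.30 and 7.62 with CSF-1 alone, 7.12, 7.03 and 7.04 at 1.5 days and 7.17, 7.28 and 7.17 at 3 days. Here the spread was in the CSF-1 alone group, whose range of 0.57 covered both RANKL groups except for the 2 lowest arrays at 1.5 days. The change was -0.26 at 1.5 days (interval -0.56 to 0.04) and -0.12 at 3 days (interval -0.42 to 0.18), with adjusted p of 0.664 and 0.797. The 3 day sign rested on CSF-1 alone replicate 3, without which it was 0.03.

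Asns, asparagine synthetase, and Psat1, the second enzyme of serine synthesis, are the supply enzymes that were measured. Asns read 10.31, 9.95 and 9.92 with CSF-1 alone, 10.44, 10.30 and 10.29 at 1.5 days and 9.66, 10.47 and 10.57 at 3 days. Replicate 1 ran against the other replicates: it was highest of its group with CSF-1 alone and at 1.5 days, and lowest of all 9 arrays at 3 days. Over all arrays the change was 0.17 at 3 days (interval -0.36 to 0.71, adjusted p = 0.838) and 0.28 at 1.5 days (interval -0.25 to 0.82, adjusted p = 0.874). With replicates 2 and 3 alone the 3 day change was 0.59 with an adjusted p of 0.0226, the only member called there, where 2.25% of all genes were called. In that setting Asns was 0.36 higher at 1.5 days, with an adjusted p of 0.0571.

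Psat1 had the widest range, 1.47. It read 8.59, 8.53 and 8.36 with CSF-1 alone, 8.77, 8.68 and 8.80 at 1.5 days and 7.37, 8.34 and 8.84 at 3 days. The 1.5 day arrays all lay above CSF-1 alone, and the 3 day arrays ran from the lowest to the highest value of the gene. The 1.5 day change was 0.26 (interval -0.48 to 0.99, adjusted p = 0.95). At 3 days it was -0.31 (interval -1.04 to 0.42, adjusted p = 0.777), and 0.10 without RANKL 3 days replicate 1.

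Slc3a2 and Slc7a5 encode the heavy and light chains of LAT1, which brings leucine and other large neutral amino acids into the cell. Slc3a2, the heavy chain, read 11.52, 11.73 and 11.76 with CSF-1 alone, 11.37, 11.37 and 11.40 at 1.5 days and 11.31, 11.63 and 11.61 at 3 days. The 1.5 day arrays were tight and below CSF-1 alone, and the 3 day arrays overlapped both groups. Its change was -0.29 at 1.5 days (interval -0.52 to -0.06, unadjusted p = 0.0214, adjusted p = 0.420 by limma) and -0.15 at 3 days (interval -0.39 to 0.08, adjusted p = 0.660). The 1.5 day difference was called with replicates 2 and 3 alone (-0.36, adjusted p = 0.0385) and with a weight per array (-0.33, adjusted p = 0.0365). These fits called 3.19% and 4.08% of all genes. Slc7a5, the light chain, read 9.23, 8.80 and 8.72 with CSF-1 alone, 9.39, 8.99 and 9.09 at 1.5 days and 8.63, 8.98 and 8.98 at 3 days. Replicate 1 was the highest of its group at the first 2 steps and the lowest at 3 days. The change was 0.24 at 1.5 days (interval -0.15 to 0.63, adjusted p = 0.838) and -0.05 at 3 days (interval -0.45 to 0.34, adjusted p = 0.947). The 3 day sign was not settled: it was 0.06 without RANKL 3 days replicate 1, 0.10 without CSF-1 alone replicate 1, 0.08 with a weight per array and 0.22 with replicates 2 and 3 alone. The chains thus had changes of opposite sign at 1.5 days, a difference between them that was not tested.

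**Figure D2:**
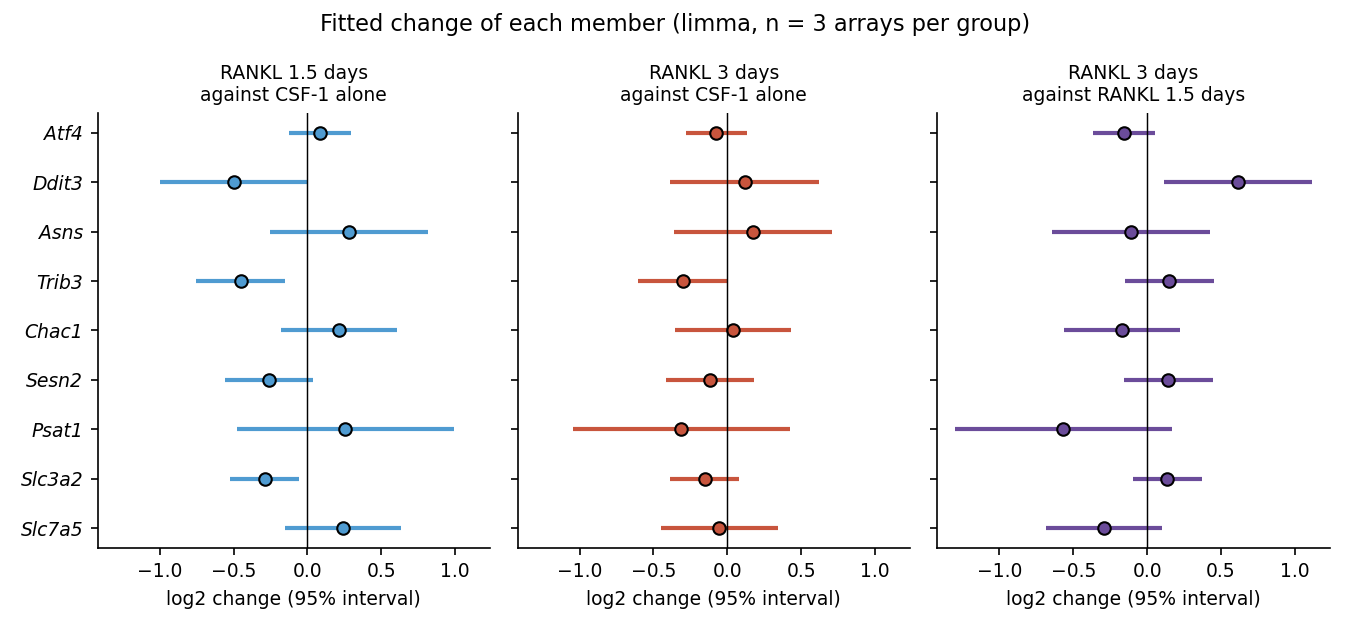
Fitted log2 change of each member (points) with its 95% interval (lines) in the 3 comparisons, from limma on 3 arrays per group. At 1.5 days against CSF-1 alone the intervals of Trib3 (-0.75 to -0.15) and Slc3a2 (-0.52 to -0.06) leave out 0, and at 3 days against 1.5 days that of Ddit3 does (0.11 to 1.12), but none of these passed the adjusted threshold.

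Much of the spread of the members came from 1 array, RANKL 3 days replicate 1. Psat1 was 1.22 lower there than the mean of replicates 2 and 3, a gap that 1.57% of all genes matched or passed. Asns was 0.86 lower (4.65% of genes) and Chac1 0.68 lower (8.33%), while Ddit3 was 0.87 higher (4.49%). Slc7a5, Slc3a2 and Atf4 were lower by 0.35, 0.31 and 0.29, which is ordinary on that array (25.9% to 32.1% of genes), and Trib3 was 0.27 higher. Replicate 1 of the earlier groups shared parts of this profile and not others. Psat1, Asns and Slc7a5 were above their other replicates there, with CSF-1 alone (0.15, 0.38 and 0.47) and at 1.5 days (0.03, 0.15 and 0.35), while Trib3 was higher on replicate 1 in every group (0.21 with CSF-1 alone and 0.30 at 1.5 days). Of the wider supply lists, the aminoacyl-tRNA synthetases and the serine, glycine and one-carbon enzymes were mostly low on that array as well, and the amino acid transporters were split. All 16 measured aminoacyl-tRNA synthetases lay below the mean of replicates 2 and 3, with a median gap of -0.32. So did 9 of 10 serine, glycine and one-carbon enzymes, with a median of -0.42. The 17 amino acid transporters had 9 below and 8 above 0, with a median of -0.005 and gaps from -1.53 to 1.5. Of all 14860 genes 9127 lay below 0 on that array, with a median of -0.06. Replicate 1 at 1.5 days also had 14 of 16 synthetases below 0, with a smaller median of -0.09, beside 7356 of all 14860 genes. With CSF-1 alone it had 10 of 16 (median -0.04), beside 8228 of all genes. The 6 other ATF4 targets split into 3 above and 3 below 0 on the 3 day array. Gadd45a, a stress target shared with p53, had the largest gap of these, 1.84 higher, and was higher on replicate 1 with CSF-1 alone (0.39) and at 1.5 days (0.75) too. Osteoclast markers were lower on RANKL 3 days replicate 1 too, with a median gap of -1. On replicate 1 at 1.5 days their median gap was larger, -1.88, while that of the members was 0.085. The part of the markers in the gaps of the members was not tested.

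**Figure D3:**
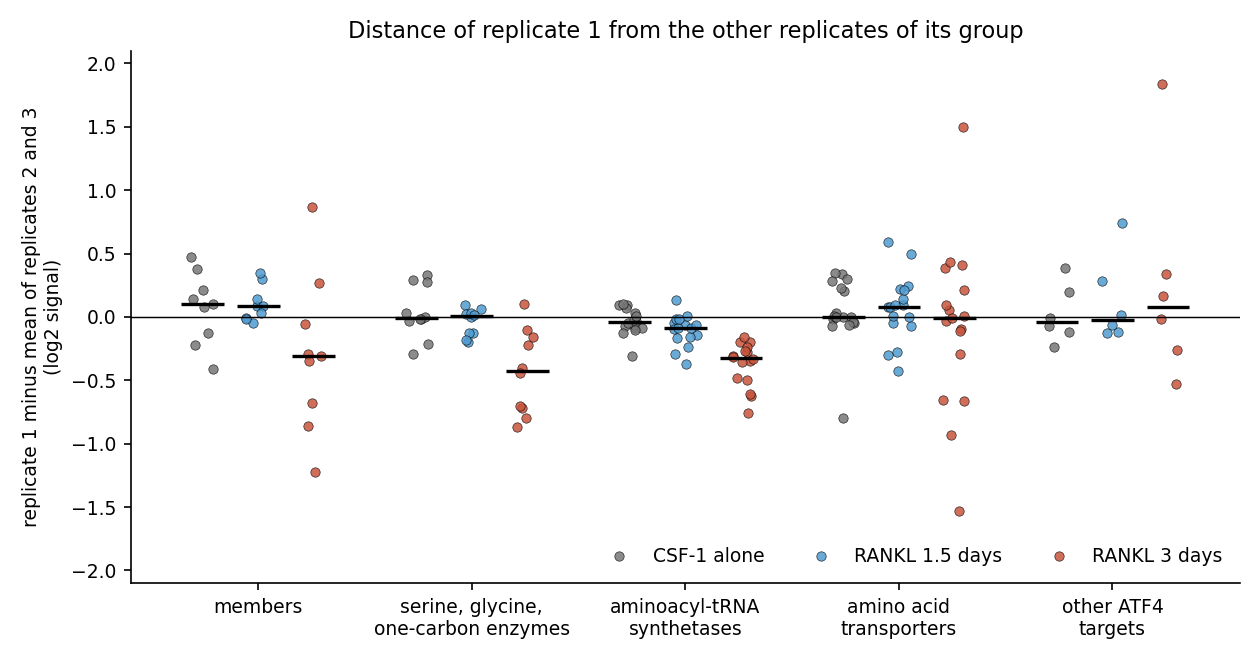
Log2 signal of replicate 1 minus the mean of replicates 2 and 3 of its group (y axis) for each gene of 5 lists (x axis), coloured by group, with the median of each list as a bar. At 3 days every synthetase lies below 0 (median -0.32) and the members spread between -1.22 and 0.87, against -0.05 to 0.35 at 1.5 days and -0.41 to 0.47 with CSF-1 alone.

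Wider lists of the same network were examined to place the members, and in the fit of all 9 arrays 0 genes of any of them were called at either time, while 59 of all genes were at 3 days and 62 at 1.5 days. At an unadjusted p under 0.05 the bZIP partners and regulators counted 2 higher and 1 lower of 8 at both times. Of all 14860 genes 876 were higher and 688 lower by that measure at 3 days, and 681 and 631 at 1.5 days. Jdp2, an AP-1 repressor known to take part in osteoclast formation, read 7.86, 8.42 and 8.53 at 3 days and 7.65, 8.96 and 8.54 at 1.5 days, against 6.84, 7.01 and 7.19 with CSF-1 alone. All RANKL arrays lay above CSF-1 alone, by 1.26 at 3 days (adjusted p = 0.195) and 1.37 at 1.5 days (adjusted p = 0.187). Atf3, a stress factor downstream of ATF4, read 9.36, 9.30 and 9.31 at 1.5 days against 9.83, 10.28 and 10.32 with CSF-1 alone, a change of -0.82 without overlap (adjusted p = 0.184). At 3 days it read 10.20, 9.60 and 9.55, so that replicate 1 lay within the CSF-1 alone range and the other replicates below it. Batf, a bZIP factor of immune cells, had the lowest 3 day change of this list, -0.58 (adjusted p = 0.496). Nupr1, a small stress-response chromatin protein singled out here after its values were seen, had the lowest adjusted p of these lists, 0.092 at 3 days, with 6.55, 6.57 and 6.32 at 3 days against 5.63, 5.74 and 6.03 with CSF-1 alone.

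The kinases and factors that act on eIF2 lay mostly a little above their CSF-1 alone level. At 1.5 days 2 of them did not overlap CSF-1 alone, all higher, as 1283 of all 14860 genes did. At 3 days 0 of them were without overlap, beside 11.5% of all genes. Of 8 measured, 7 lay above 0 at 3 days (median 0.08) and 6 at 1.5 days (median 0.18), beside 6948 and 7642 of all 14860 genes. None of the 8 passed an unadjusted p under 0.05 at either time. Their largest value was that of Eif2b4, a subunit of the eIF2 exchange factor, at 0.23 at 1.5 days and 0.15 at 3 days, and their lowest were -0.11 for Ppp1r15a (GADD34), which restores translation, at 1.5 days and -0.05 for Eif2ak4 (GCN2), the kinase that senses uncharged tRNA, at 3 days. Of the 6 other ATF4 targets measured, 1 lay above 0 at 1.5 days and 2 at 3 days, between -0.44 (Gadd45a) and 0.05 (Vldlr, a lipoprotein receptor) at 1.5 days and between -0.19 (Fgf21, a hormone) and 0.06 (Cyb5r1, a reductase) at 3 days. Among 5 paralogs of members, Sesn3 read 5.07, 5.15 and 5.02 at 3 days and 5.15, 5.02 and 4.82 at 1.5 days, against 5.38, 5.51 and 5.72 with CSF-1 alone. It lay below CSF-1 alone on all RANKL arrays, by -0.46 at 3 days (adjusted p = 0.167) and -0.54 at 1.5 days (adjusted p = 0.133). The largest values above 0 among the paralogs were 0.13 for Chac2 at 3 days and 0.01 for Trib2 at 1.5 days.

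The aminoacyl-tRNA synthetases also lay mostly a little above CSF-1 alone. Of 16 aminoacyl-tRNA synthetases measured out of 21, 15 lay above 0 at 1.5 days with a median of 0.13, where 7642 of the 14860 genes did with a median of 0.01, and 9 did not overlap CSF-1 alone, all higher, as 1283 of all genes did. At 3 days 14 of 16 lay above 0 with a median of 0.08, beside 6948 of all 14860 genes with a median of -0.01. Over all arrays 1 did not overlap CSF-1 alone, on the higher side, beside 979 of all genes. Without RANKL 3 days replicate 1, 16 of 16 lay above 0 with a median of 0.21. That alternative was chosen after seeing the data. All 16 lay low on the array it leaves out, so it could only raise their changes. None was called by limma in either setting, and over all arrays 0 passed an unadjusted p under 0.05 at either time. Vars, the valyl-tRNA synthetase, was the highest, at 9.18, 9.28 and 9.25 at 1.5 days against 8.77, 8.79 and 8.96 with CSF-1 alone (0.40, adjusted p = 0.645), and 0.18 at 3 days. The lowest were Farsa at 1.5 days (-0.01) and Yars at 3 days (-0.09).

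In the serine, glycine and one-carbon list 7 of 10 lay above 0 at 1.5 days (median 0.13), beside 7642 of all 14860 genes, led by Shmt2, the mitochondrial serine hydroxymethyltransferase, at 0.37 (adjusted p = 0.750), and 4 did not overlap CSF-1 alone on the higher side, beside 1283 of all genes. Got1, the cytosolic aspartate transaminase, was the lowest at both times, without overlap, at -0.18 at 1.5 days (adjusted p = 0.291) and -0.14 at 3 days (adjusted p = 0.39). At 3 days 4 of 10 lay above 0 with a median of -0.07, beside 6948 of all 14860 genes. It was 8 of 10 with a median of 0.12 without RANKL 3 days replicate 1, an alternative chosen after seeing the data. Aldh1l2, a mitochondrial folate enzyme, was the highest at 3 days at 0.33 (adjusted p = 0.259). It was called with replicates 2 and 3 alone (0.50, adjusted p = 0.0347), where 2.25% of all genes were called.

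Of the 17 amino acid transporters beside LAT1, 0 were called over all arrays, and their medians were -0.02 at 1.5 days and -0.01 at 3 days. Slc1a5, which carries glutamine, had the highest change at both times. It read 8.50, 9.35 and 9.51 at 3 days and 9.06, 9.33 and 9.39 at 1.5 days, against 8.96, 8.59 and 8.63 with CSF-1 alone. The change was 0.39 at 3 days (adjusted p = 0.651) and 0.53 at 1.5 days (adjusted p = 0.635), and with replicates 2 and 3 alone it was 0.82 (adjusted p = 0.0185) and 0.75 (adjusted p = 0.0194). Slc7a8, another of the light chains that pair with Slc3a2, had the lowest change, -0.34 at 3 days and -0.39 at 1.5 days (adjusted p of 0.825 and 0.927), and with replicates 2 and 3 alone only the 1.5 day change was called (-0.57, adjusted p = 0.0371). In that setting Jdp2 and Atf3 were called at both times as well, at 1.37 and -0.73 at 3 days and 1.65 and -0.995 at 1.5 days. That setting was not planned for the wider lists. It called 2.25% of all genes at 3 days and 3.19% at 1.5 days.

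**Figure D4:**
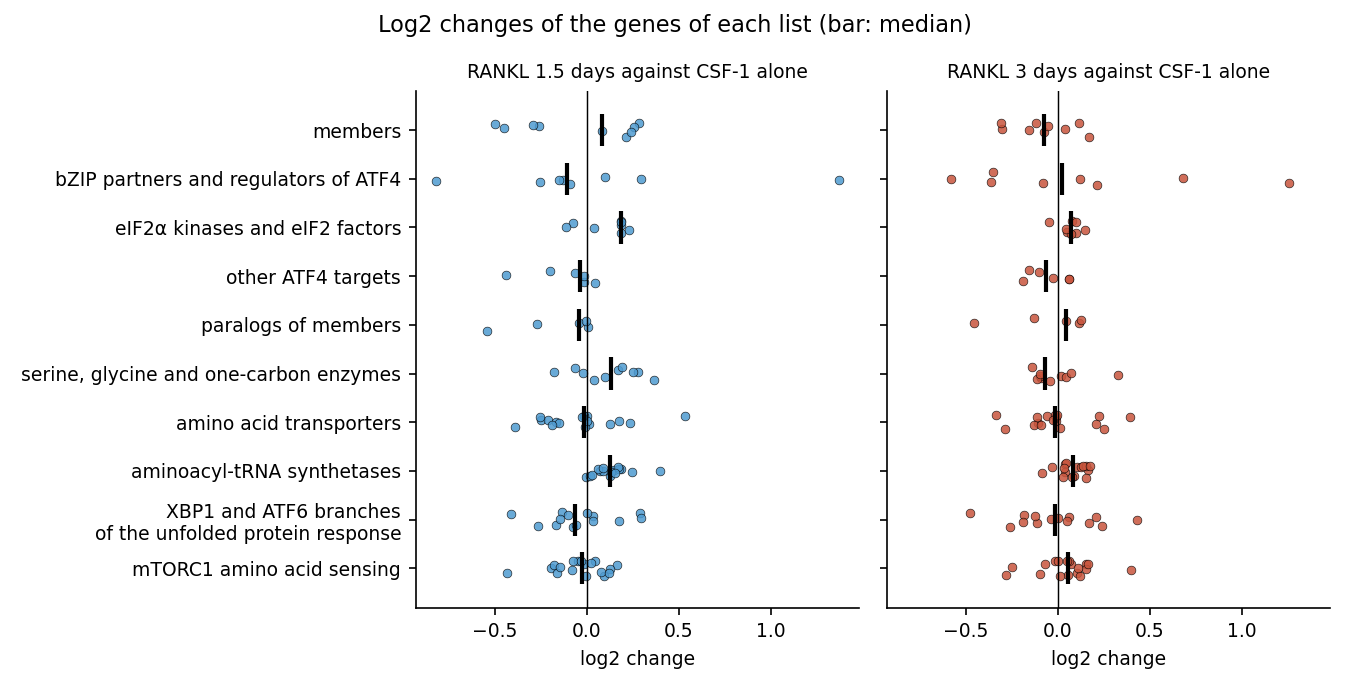
Log2 change of every measured gene (points) of the members and 9 wider lists (y axis) at 1.5 days and at 3 days of RANKL against CSF-1 alone (x axis), with the median of each list as a bar. At 1.5 days 15 of 16 synthetases lie above 0 (median 0.13), and the members split into 5 above and 4 below 0.

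The genes most like Atf4, and most like the mean of the other 8 measured members, across the 9 arrays were ranked by Pearson correlation, as a description. Atf4 was most like Slc7a1, the arginine and lysine transporter CAT1 (r = 0.977), then Ppp1ca, a catalytic subunit of protein phosphatase 1 (r = 0.957), and Cenpa, the centromeric histone (r = 0.949). The mean of the other 8 members was most like Map2k6 (r = 0.962), a kinase of the p38 pathway, Nxt2 (0.955), an RNA export factor, the glucose transporter Slc2a3 (0.954), Rassf8 (0.946) and Cyb5b (0.946). These values rested in part on RANKL 3 days replicate 1: over the other 8 arrays they were 0.912 for Slc7a1 and 0.823 to 0.912 for the 5 genes like the mean. The mean joins members that ran opposite, such as Ddit3 and Chac1 (-0.899 over 9 arrays, -0.691 over 8), so it need not follow any single one. Among the members Atf4 and Psat1 were alike (0.957 over 9 arrays, 0.834 over 8), and Atf4 and Ddit3 ran opposite (-0.861 and -0.555). Some pairs turned sign without RANKL 3 days replicate 1, such as Atf4 and Slc3a2 (0.07 over 9 arrays, -0.744 over 8). The arrays share their normalization and fall into 3 groups, so they are not independent points.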

How the data were processed

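Total RNA was hybridised to Affymetrix mouse exon arrays. The deposited values are log2 signals that the authors made with Affymetrix Expression Console and RMA (versions not given in the sources used here), for 23332 transcript clusters on 9 arrays, and array medians ran from 5.02 to 5.22. Of the clusters, 14996 had 1 symbol in the platform annotation, 1019 several and 7317 none here, and symbols were updated through RefSeq gene IDs. Group means were estimated for 14860 genes over all 9 arrays in a single limma fit (limma 3.58.1, R 4.3.3, 6 residual and 1.83 prior degrees of freedom), p-values were adjusted by Benjamini-Hochberg over all genes, and intervals are 95%. The script was tested on simulated data. The number of arrays limits the precision. Same-numbered arrays of the RANKL groups deviated together (r = 0.366, 0.211 and 0.146 between 3 and 1.5 days). Replicates 2 and 3 did so across numbers too (r = 0.178 and 0.0612), so these values set only replicate 1 apart. The main fit used no pairing, and the numbers served as pairs only in the replicate block, an alternative. Members, lists, motifs and the array set term were chosen with earlier results of these data known. Named beside the members were, for each wider list, the gene with the largest rise and the largest fall at each time, and the genes most correlated with the members. Alternatives covered normalization, filters, weights, blocks, tests and leaving out arrays. The labels give 100 ng/ml CSF-1 where the study's methods state a lower dose.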

Additional observations from a re-analysis of the deposited data

How the results depend on the processing

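Over the alternatives tried, the unadjusted t-test left out, the changes of single members kept their direction and their side of the threshold in 539 of 567 cases, turned sign in 21 and became called in 7. With replicates 2 and 3 alone the count of members called was 1 at 3 days against CSF-1 alone (Asns) and 2 at 1.5 days (Ddit3 and Slc3a2), the members' median between 3 and 1.5 days was 0.16 against -0.11, and the signs of Atf4 (0.05), Ddit3 (-0.215), Psat1 (0.145) and Slc7a5 (0.22) turned at 3 days against CSF-1 alone, as did Asns (0.225) and Chac1 (0.035) between 3 and 1.5 days. Weights per array called 2 at 1.5 days (Ddit3 and Slc3a2) and turned Ddit3 (-0.0581) and Slc7a5 (0.0835) at 3 days against CSF-1 alone and Asns (0.0653) between 3 and 1.5 days. The array set as a term called 1 at 1.5 days (Trib3). Chac1 at 3 days was -0.0267 after quantile normalization and -0.0233 with centring. The methods' t-test without adjustment counted 5 members at 1.5 days (Ddit3, Trib3, Chac1, Psat1 and Slc3a2), beside 1334 of all genes, and 1 between 3 and 1.5 days (Sesn2), beside 411. After adjustment it counted 0.

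Leaving out each array in turn gave 0 to 1 members called at 1.5 days and 0 in the other comparisons. At 3 days against CSF-1 alone, leaving out RANKL 3 days replicate 1 turned Atf4 (0.0233), Ddit3 (-0.173), Psat1 (0.0967) and Slc7a5 (0.0633), and between 3 and 1.5 days Asns (0.177) and Chac1 (0.0517). Leaving out RANKL 3 days replicate 2 or 3 turned Chac1 (-0.07 and -0.075), CSF-1 alone replicate 1 turned Slc7a5 (0.103) and CSF-1 alone replicate 3 turned Sesn2 (0.0317). Over all such fits the 3 day change against CSF-1 alone ran from -0.142 to 0.0233 for Atf4, -0.173 to 0.302 for Ddit3, -0.075 to 0.265 for Chac1, -0.253 to 0.0317 for Sesn2, -0.638 to 0.0967 for Psat1 and -0.152 to 0.103 for Slc7a5, and that between 3 and 1.5 days from -0.278 to 0.177 for Asns and -0.288 to 0.0517 for Chac1. Why these values moved was not tested, beyond the arrays that each setting leaves out.

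The replicate block changed no call of a member: 0 were called in each comparison. In every comparison the arrays share only a number. Against CSF-1 alone same-numbered arrays had r = 0.331, 0.0634 and 0.119 at 3 days and 0.27, 0.0461 and 0.134 at 1.5 days. The block moved the count over all genes to 97 at 3 days, against 59 without it, and to 71 at 1.5 days, against 62. That count was unstable: it ran from 0 to 964 at 3 days and from 2 to 1334 at 1.5 days, the highest by the unadjusted t-test. It was 334 and 474 with replicates 2 and 3 alone, 215 and 205 with the array set as a term, 95 and 95 without the third of genes with the lowest mean, 31 and 26 with the 6 arrays of each comparison, 19 and 15 with all transcript clusters, and 4 to 102 and 2 to 139 as arrays were left out. Between 3 and 1.5 days it was 0 in all settings but the unadjusted t-test.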

Other observations

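Among the wider lists, unfolded protein response genes outside the ATF4 branch and the mTORC1 machinery that senses amino acids, held 0 genes called over all arrays. Of 14 unfolded protein response genes, 7 lay above 0 at 3 days (median -0.02) and 5 at 1.5 days (median -0.07), beside 6948 and 7642 of all 14860 genes. Dnajb9, an endoplasmic reticulum chaperone, had the highest 3 day change (0.43, adjusted p = 0.571) and Herpud1, which takes part in degradation of misfolded protein, the highest at 1.5 days (0.29, adjusted p = 0.364), with 8.83, 8.68 and 8.62 at 1.5 days against 8.54, 8.39 and 8.32 with CSF-1 alone. Sdf2l1, a cofactor of the chaperone BiP, was the lowest at both times, at -0.47 at 3 days (adjusted p = 0.547) and -0.41 at 1.5 days (adjusted p = 0.748).

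Of 18 mTORC1 genes, 13 lay above 0 at 3 days (median 0.06) and 7 at 1.5 days (median -0.025), beside 6948 and 7642 of all 14860 genes. At 3 days it was 10 of 18 (median 0.01) without RANKL 3 days replicate 1 and 9 of 18 (median -0.0025) with replicates 2 and 3 alone, settings not planned for this list. Lamtor5, a subunit of the lysosomal scaffold of mTORC1, was the lowest at 3 days, at 10.14, 10.33 and 10.27 against 10.44, 10.65 and 10.49 with CSF-1 alone (-0.28, adjusted p = 0.214), without overlap. Rragd, a small GTPase of the same machinery, showed a large gap between replicates in every group. It read 6.96, 6.24 and 6.18 with CSF-1 alone, 6.90, 5.57 and 5.61 at 1.5 days and 7.89, 6.25 and 6.43 at 3 days, so that replicate 1 was the highest each time. Over all arrays it had the highest 3 day change of the list, 0.40 (adjusted p = 0.833), and the lowest 1.5 day change, -0.43 (adjusted p = 0.944). With replicates 2 and 3 alone its 1.5 day change was -0.62 (adjusted p = 0.035), where 3.19% of all genes were called. The highest at 1.5 days was Rraga, a GTPase of the same family, at 0.16 (adjusted p = 0.842).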
